A study of Mus musculus with 8 samples.

Results

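The clustered protocadherin genes are 58 neighbouring genes on mouse chromosome 18, taken by name from the alpha (Pcdha), beta (Pcdhb) and gamma (Pcdhg) families, out of 34329 genes measured in the series. All 58 were found in the annotation, with 14 alpha, 22 beta and 22 gamma members, and 1 of them, Pcdhgb8, is annotated as a transcribed pseudogene. H3K27me3, the histone mark laid down by Polycomb repressive complex 2, had been mapped by chromatin immunoprecipitation and sequencing in female neural stem cell lines from E14.5 mouse embryos. Genotypes of Smchd1, a chromatin protein with roles in silencing the inactive X and some autosomal gene clusters, were compared, with 2 libraries for each of 2 genotypes. The del/del cells had lost the conditional Smchd1 allele after transduction with the retrovirus MSCV-Cre-puro, puromycin selection from 24 hours and harvest at 7 days, and the del/fl cells were the untransduced part of the same kind of line. All libraries shared 1 deleted Smchd1 allele, a mixed C57BL/6, 129 and Castaneus background, a maternal X of strain 129 origin with the Xist deltaA allele, and a paternal X from Castaneus. Loss of Smchd1 therefore cannot be told apart from transduction and selection.

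Clustered protocadherins are cadherin-like adhesion proteins that give single neurons a surface identity. Each alpha and gamma gene has its own promoter and large variable first exon, which is spliced to constant exons that all genes of its cluster share, whereas each beta gene is a single exon. A neuron switches on a few of these promoters, largely by chance, with the help of CTCF, cohesin and distant enhancers, while the C-type genes Pcdhac1, Pcdhac2, Pcdhgc3, Pcdhgc4 and Pcdhgc5 are used more uniformly. Promoters that are not in use often carry DNA methylation, and Smchd1 is known from earlier work in mice to help keep genes of these clusters silent.

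The annotation showed this layout. The 14 alpha genes began between 36930285 and 37143678 on chromosome 18 (mm10) and all ended within 1240 bp of each other, and the 22 gamma genes began between 37661775 and 37819546 and ended within 1384 bp of each other. The 22 beta genes were separate intervals of 2340 to 5271 bp. The lower coordinate was therefore taken as the start of every member, and the shared end as the place of the constant exons.

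The immunoprecipitated libraries kept 14064030 and 12819919 tags in del/del cells and 13288499 and 11793402 tags in del/fl cells. Autosomal peaks numbered 17102 and 26327 in del/del cells against 17564 and 26637 in del/fl cells, so the libraries numbered 2 had the longer lists in both genotypes. Among markers of the labelled cell type, 6 of 8 neural stem cell genes (Sox2, Nes, Vim, Fabp7, Msi1 and Hes5) held no peak near their ends in any library. Of the other 2 stem cell genes, Pax6 had 9.01% and 16.7% in del/del cells and 8.70% and 22.1% in del/fl cells, and Sox1 had 0% in both del/del libraries and 1.83% and 2.28% in del/fl cells. Of 25 markers of neurons, astrocytes, oligodendrocytes, blood, endothelium and fibroblasts, 10 had a peak and 15 were bare in all libraries. Of the 10, 9 had a lower mean in del/del cells and 0 a higher one. Among all 33074 autosomal genes, 8065 (24.4%) had a peak near their ends. Of these 8065, 4651 had a lower mean in del/del cells and 3031 a higher one. The average over the 25 was 4.85% and 7.78% in del/del cells, against 7.58% and 8.83% in del/fl cells, and its part in the results was not tested. The lines are bulk samples, so a mark on few cells and a weak mark on all cells cannot be told apart.

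Peaks of H3K27me3 were short and uneven over the locus, and none was called in its gamma part. Peaks covered 1.12% and 2.96% of the 912 kb from Pcdha1 to the gamma end in del/del cells, and 1.72% and 2.66% in del/fl cells (2.04% ± 1.30 against 2.19% ± 0.667, SD, n = 2 each, exact two-sided permutation p = 1). On all autosomes together the covered share was 1.34% and 1.79% in del/del cells against 1.45% and 1.93% in del/fl cells, so the locus lay below its own library's autosomal share in del/del replicate 1 and above it in the other 3. It lay above the share of chromosome 18 in each library, which was 0.815% and 1.14% in del/del cells and 0.904% and 1.22% in del/fl cells. There were 14 and 31 peaks in del/del cells and 14 and 27 in del/fl cells. Per Mb this made 15.4 and 34.01 peaks in del/del cells and 15.4 and 29.6 in del/fl cells, beside autosomal densities of 6.95 and 10.7 in del/del cells and 7.14 and 10.8 in del/fl cells. In both genotypes the library numbered 2, with the longer list, had more of them, and the part of list length in this was not tested.

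**Figure D1:**
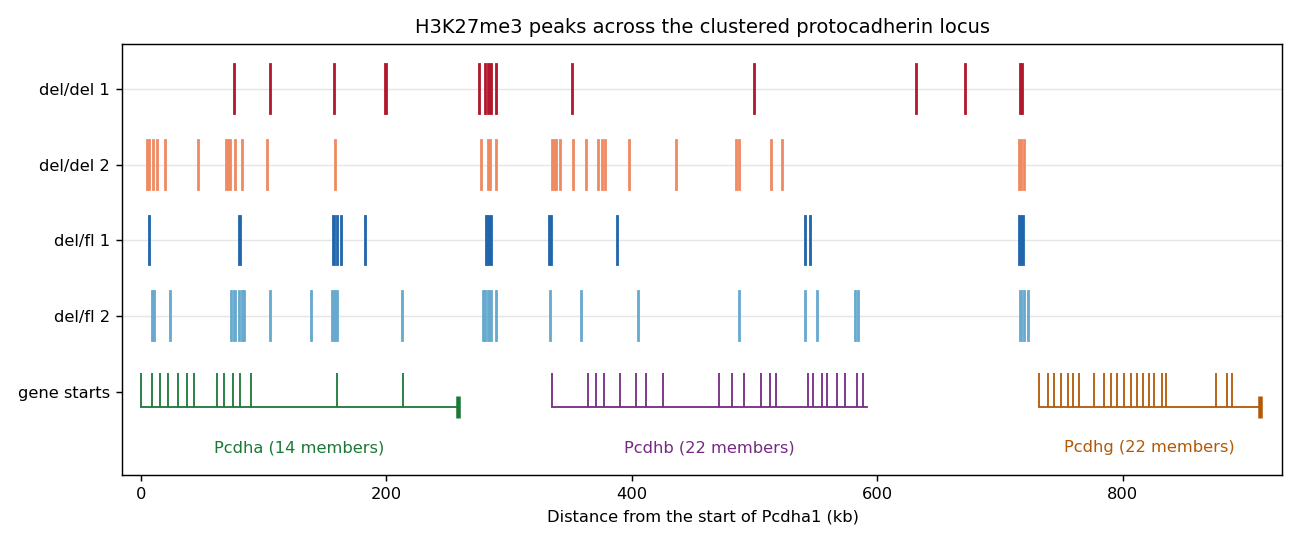
Peaks of each library drawn along the locus, with distance from the start of Pcdha1 in kb on the horizontal axis and 1 row per library. Each bar is a peak (very short peaks are widened to stay visible), the upright ticks are gene starts, and the thick ticks mark the shared alpha and gamma ends. No peak of any library lies over the gamma genes, and 3 places hold peaks in all 4 rows.

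The alpha cluster was covered over 1.01% and 3.92% of its 259 kb in del/del cells and 1.83% and 4.29% in del/fl cells. The genotypes overlapped (2.47% ± 2.06 against 3.06% ± 1.73, SD, n = 2 each, exact two-sided permutation p = 0.667). In the beta cluster, 256 kb long, cover was 0.408% and 3.36% in del/del cells against 0.757% and 1.26% in del/fl cells. Here the del/del libraries bracketed the del/fl libraries (1.88% ± 2.09 against 1.01% ± 0.356, exact permutation p = 1, n = 2 each). With 2 libraries per genotype this test cannot give a p under 0.333. Leaving out single libraries moved the alpha difference between -2.05 points without del/del replicate 2 and 0.863 points without del/del replicate 1, and the beta difference between -0.601 and 2.35 points for the same 2 libraries.

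Within the alpha cluster the 92.4 kb of the variable genes, Pcdha1 to the first exon of Pcdha12, were 0.361% and 8.65% covered in del/del cells and 2.14% and 5.88% in del/fl cells, with the del/del libraries on either side of the del/fl ones. The 123 kb from there to the first exon of Pcdhac2 were 1.85% and 1.74% covered in del/del cells and 2.23% and 4.57% in del/fl cells. Here both del/fl libraries were higher (exact two-sided permutation p = 0.333, the smallest possible, n = 2 each). This order is not separate from that at Pcdhac1, described below. The region at the Pcdhac1 start made up 640 of 2282 bp and 1019 of 2146 bp covered here in del/del cells. In del/fl cells it made up 2005 of 2759 bp and 4916 of 5646 bp.

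The gamma cluster held 0 peaks over 180 kb in every library. The stretch free of peaks ran well past it: the last peak before the cluster ended 13.0 and 11.3 kb ahead of Pcdhga1 in del/del cells and 11.8 and 7.29 kb ahead in del/fl cells. The next peak after the shared gamma end began 184 and 170 kb downstream in del/del cells and 217 and 184 kb downstream in del/fl cells. Peak-free blocks thus spanned 377 and 362 kb in del/del cells and 409 and 371 kb in del/fl cells. Bare stretches were common elsewhere, since 33.7% of 13672 autosomal windows of the same length as the gamma cluster had no peak in any library. The 3 gamma C-type genes, Pcdhgc3, Pcdhgc4 and Pcdhgc5, and the constant exons at the shared end were bare along with the variable genes.

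Cover was higher between the alpha and beta clusters than over any whole cluster. The 76.1 kb from the alpha end to Pcdhb1 were 6.06% and 6.58% covered in del/del cells and 7.09% and 9.26% in del/fl cells. Both del/fl libraries lay above both del/del libraries (6.32% ± 0.365 against 8.17% ± 1.53, exact permutation p = 0.333, the smallest possible, n = 2 each). This stretch was singled out after its values were seen. The same order was found outside the locus, in the 500 kb before Pcdha1. There cover was 0.119% and 0.597% in del/del cells and 1.01% and 1.15% in del/fl cells. In the 500 kb after the gamma end the genotypes overlapped. The 140 kb from Pcdhb22 to Pcdhga1 were 1.40% and 2.30% covered in del/del cells and 2.55% and 2.07% in del/fl cells, with overlapping genotypes.

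**Figure D2:**
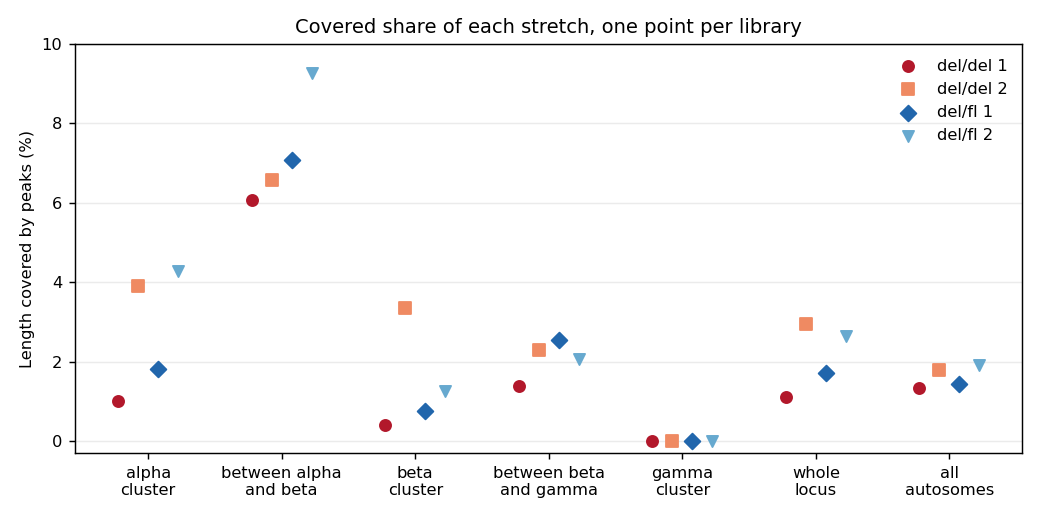
Percent of each stretch covered by peaks, with 1 point per library (del/del 1 and 2, then del/fl 1 and 2). Of the 3 clusters and the 2 stretches between them, the one between alpha and beta is the highest in each library, from 6.06% to 9.26%, and the gamma cluster is at 0 in all 4.

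The locus held no very strong peak. MACS2, the peak caller, gives each peak a pileup (stacked tags), a fold over the local background and a −log10 q, and all 3 are the authors' values. The highest −log10 q in the locus was 3.35 and 2.71 in del/del cells and 3.88 and 3.47 in del/fl cells. Those maxima lay above 82.4% and 86.6% of autosomal peaks in del/del cells and 87.9% and 91.5% in del/fl cells. On the autosomes 8.50% and 4.82% of peaks in del/del cells, and 8.25% and 5.25% in del/fl cells, reached a −log10 q of 5, which no peak of the locus did. In the middle of the range the locus was ordinary, with a median −log10 q of 2.03 and 1.59 in del/del cells and 1.89 and 1.48 in del/fl cells, beside autosomal medians of 2.14 and 1.54 in del/del cells and 2.02 and 1.53 in del/fl cells. Pileup ran from 6.00 to 8.96 and from 5 to 9.07 in the del/del libraries, and from 6.00 to 9.54 and from 5.03 to 8.89 in the del/fl libraries. Median peak length was 662 and 722 bp in del/del cells and 583 and 607 bp in del/fl cells, against autosomal medians of 788 and 742 bp in del/del cells and 835 and 782 bp in del/fl cells.

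**Figure D3:**
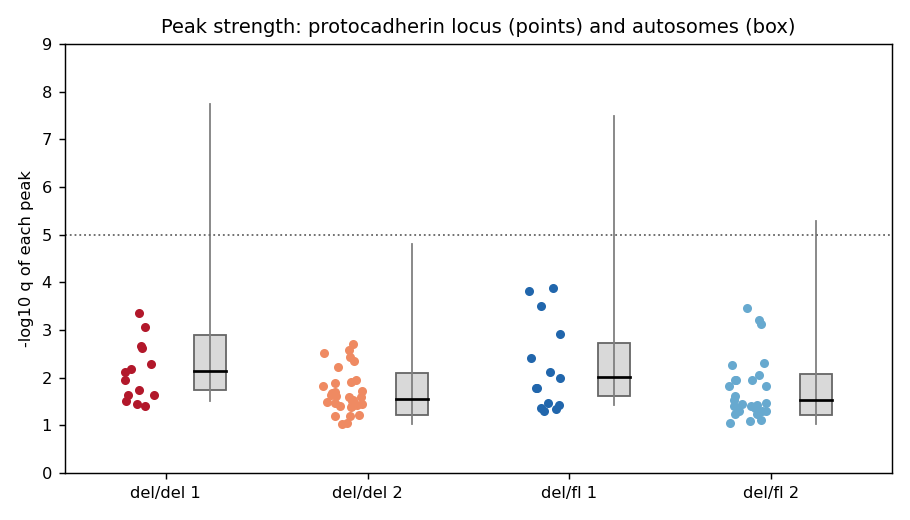
Strength of each peak as −log10 q in the 4 libraries. Points are peaks of the protocadherin locus, and the boxes give the autosomal median and quartiles with lines to the 5th and 95th percentiles. All points stay below the dotted line at 5, with the highest at 3.88 in del/fl replicate 1.

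When the peaks of all libraries were merged where they touched or overlapped, the locus held 58 marked regions (a number that only happens to equal that of the genes). Of these, 44 were found in 1 library alone and 3 in all 4. Regions found in all 4 made up 5.17% here, 11.8% on chromosome 18 and 14.3% on all autosomes. Those found in 1 library alone made up 75.9% here, 73.3% on chromosome 18 and 67.5% on all autosomes. Del/del replicate 2 alone gave 21 of the regions and del/fl replicate 2 alone gave 12, whereas del/del replicate 1 and del/fl replicate 1 alone gave 6 and 5. The base pairs shared by both del/del libraries, 4.57 kb, were 44.7% of the cover of replicate 1 and 16.9% of that of replicate 2. The 8.76 kb shared by both del/fl libraries were 56.0% and 36.1% of theirs. Libraries of different genotypes shared from 4.66 to 8.44 kb, which lies between those values.

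The most regular of the 3 shared regions lay between the clusters, far from any gene start. At 37213296 to 37217082 on chromosome 18 (mm10), 24.4 kb beyond the alpha end and 47.9 kb ahead of Pcdhb1, each library had 1 peak. It was 3094 and 2833 bp long with a pileup of 7.91 and 7.52 in del/del cells, and 3622 and 3738 bp long with a pileup of 9.52 and 8.89 in del/fl cells. Both del/fl peaks were longer and higher than both del/del peaks, but pileup depends on each library's depth and scaling and was not tested. Neighbouring regions, at 37210672 to 37212426 and at 37219668 to 37221147, were each marked in 3 libraries, the first missing in del/del replicate 2 and the second in del/fl replicate 1.

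A second shared region, at 37646204 to 37650500, lay 2.00 kb beyond the annotated upper end of Taf7, which encodes a subunit of the general transcription factor TFIID, and ahead of the gamma cluster. Peaks took up 25.1% and 75.1% of its length in del/del cells and 83.4% and 41.3% in del/fl cells. The genotypes overlapped. It was the last marked region before the bare gamma cluster in 3 of the 4 libraries, and del/fl replicate 2 had a further peak at 37653354 to 37654482.

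The third shared region, at 37086703 to 37091618, reached across the start of Pcdhac1, the first alpha C-type gene. In del/del cells its peaks were 640 and 1019 bp long, with a pileup of 6.18 and 5.08, and lay entirely ahead of the gene. In del/fl replicate 1 a peak of 1511 bp with a pileup of 9.54 lay ahead of the gene and a peak of 494 bp within it, and in del/fl replicate 2 a peak of 4916 bp with a pileup of 7.00 spanned the start.

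**Figure D4:**
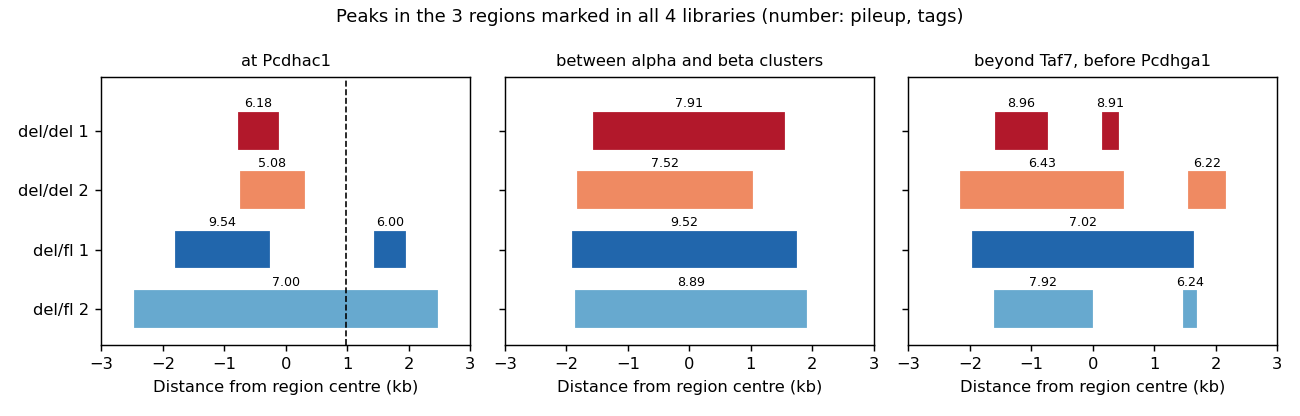
Extent of the peaks in the 3 regions marked in all 4 libraries, as distance from the region's centre in kb, with 1 row per library and the authors' pileup above each peak. The dashed line is the start of Pcdhac1, which only the 4916 bp peak of del/fl replicate 2 crosses.

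Cover was then measured within 2.5 kb of each member's own start, a window meant to hold the promoter and most of the variable exon. A peak reached 18 of the 58 start windows in at least 1 library: 8 of 14 alpha, 10 of 22 beta and 0 of 22 gamma. That was 31.0% of the members, and among 16457 autosomal protein-coding genes of known strand the share was 20.6%. These genes, the background of all start comparisons, leave out chromosome 18, for which no strand was at hand. That chromosome was less covered than the autosomes together in each library. Windows of neighbouring members can share a peak, as at Pcdhb13 and Pcdhb14, so a single peak can mark more than 1 member. Of the 18 members, 11 had a peak in 1 library only, 6 of them in del/del replicate 2, and 1, Pcdhac1, had a peak in all 4. The mean over all 58 starts was 0.336% and 3.58% in del/del cells against 2.37% and 3.85% in del/fl cells, well under the 5.52% and 6.50% in del/del cells and 6.08% and 7.24% in del/fl cells at the autosomal starts.

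Pcdhac1 had the highest start cover of any member, with 12.8% and 20.4% in del/del cells against 34.9% and 79.6% in del/fl cells. Both del/fl libraries were above both del/del libraries. The other alpha C-type gene, Pcdhac2, had a peak only in del/fl replicate 2, over 5.04% of its window. The alpha constant stretch, the 42.7 kb from behind the first exon of Pcdhac2 to the shared end, held no peak in any library.

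Among the 12 variable alpha genes, 6 were marked at their starts. Pcdha11 had 0% and 10.9% in del/del cells and 32.5% and 22.8% in del/fl cells, again without overlap between the genotypes. Pcdha10, its neighbour, had 6.68% and 24.7% in del/del cells and 0% and 41.5% in del/fl cells. Pcdha2 had 0% and 37.5% in del/del cells and 7.16% and 16.96% in del/fl cells. For these last 2 genes the genotypes overlapped.

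Pcdha4 was marked in the replicates numbered 2 alone, with 0% and 24.1% in del/del cells and 0% and 11.1% in del/fl cells. Pcdha3 and Pcdha9 were marked in del/del replicate 2 alone, at 3.84% and 13.3%. Pcdha1, Pcdha5, Pcdha6, Pcdha7, Pcdha8 and Pcdha12 had no peak in any library. Alpha cover gathered near the starts: the 2.5 kb ahead of each start were 1.83% and 12.01% covered in del/del cells and 5.37% and 10.6% in del/fl cells. The 2.5 kb behind the starts were 0.954% and 7.23% covered in del/del cells and 5.28% and 14.6% in del/fl cells. The rest of the cluster had 0.859% and 1.78% in del/del cells against 0.531% and 1.17% in del/fl cells.

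In the beta cluster Pcdhb1, which stands apart at its lower end, was the most covered member, with 0% and 32.7% in del/del cells and 31.9% and 19.2% in del/fl cells. A peak lay on the start in both del/fl libraries, at 37264427 to 37265584 in replicate 1, which had a further peak ahead of the start at 37262831 to 37263265, and at 37264073 to 37265032 in replicate 2. By contrast, the del/del replicate 2 peak lay behind it, at 37265864 to 37267778. Pcdhb15 had 0% in both del/del libraries and 13.96% and 14.7% in del/fl cells. It was the only member whose start window was marked in both libraries of 1 genotype and in neither of the other.

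The other 8 marked beta starts each had a peak in 1 library. They were Pcdhb2 at 11.4%, Pcdhb4 at 15.7%, Pcdhb13 at 12.3% and Pcdhb14 at 0.820% in del/del replicate 2. In del/fl replicate 1 they were Pcdhb5 at 13.1% and Pcdhb16 at 3.78%, and in del/fl replicate 2 Pcdhb6 at 3.86% and Pcdhb21 at 8.48%. The Pcdhb14 value is the edge of the Pcdhb13 peak, at 37444405 to 37445197, and the Pcdhb16 peak also lies in the Pcdhb15 window. Del/del replicate 1 had a peak at no beta start, and the remaining 12 beta genes were bare at their starts in all libraries.

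**Figure D5:**
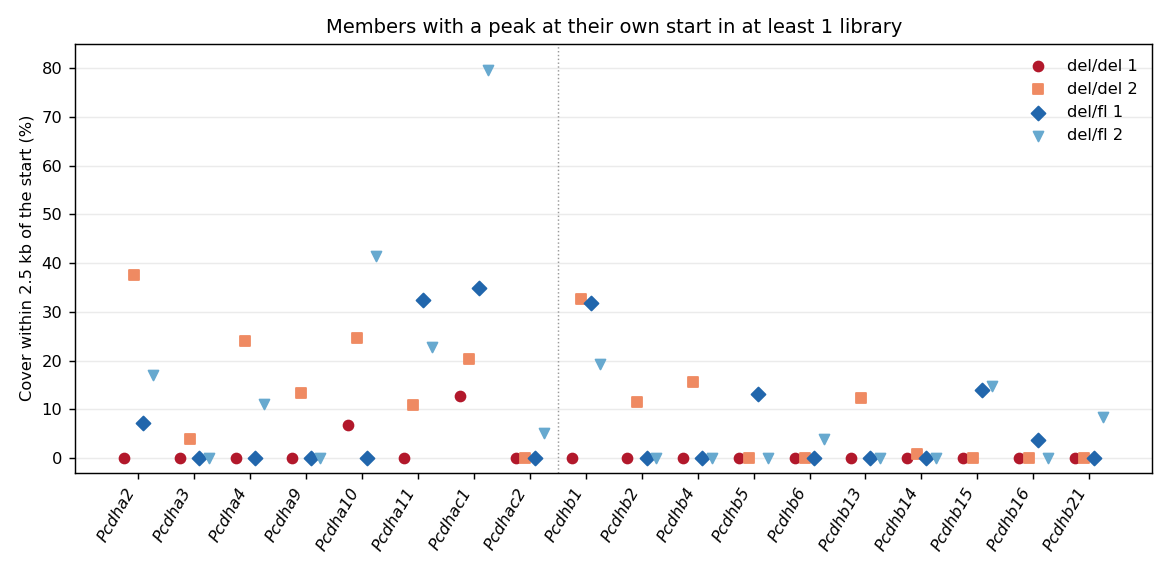
Cover within 2.5 kb of the start for the 18 members with a peak there, in chromosomal order, with 1 point per library (del/del 1 and 2, then del/fl 1 and 2) and a dotted line between alpha and beta members. Pcdhac1 is highest, at 79.6% in del/fl replicate 2, and in 11 of the 18 members only 1 library is above 0.

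In all, 3 of the 18 marked starts (Pcdha11, Pcdhac1 and Pcdhb15) had both del/fl libraries above both del/del libraries, and 0 had the opposite order. Over 3388 autosomal protein-coding genes with a start peak these orders were found in 17.1% and 5.61%, so 3 of 18 was close to the background share. Within 1 kb of the start, a narrower window, the mean over the 58 members was 0% and 0.398% in del/del cells and 2.71% and 4.31% in del/fl cells. At the autosomal starts it was 5.89% and 6.80% in del/del cells and 6.34% and 7.55% in del/fl cells. The first base of the gene lay inside a peak at 0 members in each del/del library and at 2 in each del/fl library: Pcdha11 and Pcdhb1 in replicate 1, and Pcdhac1 and Pcdhb1 in replicate 2. That was 0% and 0% of the members in del/del cells and 3.45% and 3.45% in del/fl cells, below the 5.88% and 6.78% in del/del cells and 6.25% and 7.40% in del/fl cells at autosomal starts. This last measure was chosen after the data were seen and has no test.

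To test members against all genes, cover within 2.5 kb of both annotated ends was fitted with limma over the 9132 genes with a peak in at least 1 library. The 20 members among them were 8 alpha and 12 beta genes, and the other 38, with all 22 gamma genes, could not be tested. The 20 were 34.5% of the members, beside 24.4% of autosomal genes with such a peak. No member passed an adjusted p of 0.05 in either direction, and 0% of all genes passed in each direction. Of the 20, 12 had a peak in 1 library only, and such a member is bound to differ between that library and the other 3. The means were higher in del/del cells at 10 members and lower at 10, with a median difference of -0.08 points beside -0.96 points over all autosomal genes tested.

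At an unadjusted p under 0.05 there was 1 member, Pcdhb15, which had 0% cover in both del/del libraries and 8.95% and 9.42% in del/fl cells (difference -9.19 points, SE 0.897, limma adjusted p = 0.260). Among all genes tested 5.66% were higher and 4.18% lower in del/del cells at that level, and among autosomal genes 1.77% and 4.7%. Pcdha11 had 0% and 5.46% in del/del cells and 16.2% and 11.4% in del/fl cells (difference -11.07 points, SE 3.31, limma adjusted p = 0.518). Pcdhac1 had 6.40% and 10.2% in del/del cells and 17.4% and 39.8% in del/fl cells (difference -20.34 points, SE 9.94, limma adjusted p = 0.624). The remaining 17 tested members had adjusted p-values from 0.624 to 0.970.

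Calls appeared when a library was left out. Without del/del replicate 1, limma called 8 of 20 tested members higher in del/del cells, beside 1063 of 8894 genes (11.95%), and all 8 had a peak in del/del replicate 2 alone. Without del/fl replicate 1 it called 5 of 19 members lower, beside 1295 of 8831 genes (14.66%). The members called lower had 0% in both del/del libraries, so their cover in that fit came from del/fl replicate 2 alone. In both cases the genotype concerned was then a single library whose spread is assumed to be like that of the others. Pcdhb15 was among the members called lower, and its difference ran from -9.42 to -1.21 points over 13 alternatives. With 0% in both del/del libraries, dropping peaks or libraries could not make it positive. For Pcdhac1 the difference ran from -36.6 to -6.25 points over 13 alternatives. Both del/fl libraries lay above both del/del libraries there, so leaving out 1 library could not reverse its sign.

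Counted by presence, 0 of the 20 tested members were gained, meaning a peak near either end in both libraries of del/del cells and none of del/fl cells, and 2 (Pcdhb15 and Pcdhb16) were lost, meaning the reverse. Among autosomal genes with a peak 1.56% were gained and 2.48% lost. Pcdhb16 had 0% in both del/del libraries and 1.89% and 5.12% in del/fl cells (limma adjusted p = 0.624). Its 2 del/fl peaks were at different places, 37475810 to 37475998, which lies within Pcdhb15, and 37481342 to 37481853. Among the 58 merged regions 0 were gained and 3 lost, at 37010588 to 37012210 by Pcdha11, at 37264073 to 37265584 by Pcdhb1 and at 37471525 to 37472705, 0.841 kb ahead of Pcdhb15. On the autosomes 1.81% of regions were gained and 2.38% lost.

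In fixed windows of 100 kb, which do not depend on the annotation, 8 of the 10 windows over the locus held a peak, and limma called none of them. Over all windows tested 7.03% were called higher and 0.0858% lower, and on the autosomes 0.248% and 0.0959%. The most covered window, 37200001 to 37300000, which runs from the stretch behind the alpha genes to Pcdhb2, had 4.87% and 8.46% in del/del cells and 5.98% and 7.27% in del/fl cells (difference 0.03 points, limma adjusted p = 0.998). The window with Pcdha10, Pcdha11, Pcdha12 and Pcdhac1, from 37000001, had 1.74% and 6.13% in del/del cells and 3.91% and 9.34% in del/fl cells (difference -2.69 points, adjusted p = 0.763).

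The window of the first 9 alpha starts, from 36900001, had 0% and 4.02% in del/del cells and 0.358% and 1.49% in del/fl cells. The window from 37600001, with the shared region beyond Taf7 and the first 7 gamma starts, had 1.27% and 3.23% in del/del cells and 3.58% and 2.90% in del/fl cells. The other 4 windows with a peak, from 37100001, 37300001, 37400001 and 37500001, had between 0% and 2.59%, with adjusted p-values from 0.803 to 0.968. The windows from 37700001 and 37800001, with 15 gamma starts, were at 0 in all libraries.

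Genes around the locus had few peaks. Of 28 protein-coding genes within 500 kb on either side, 25 had no peak near their ends, among them Zmat2, Hars2 and Hars before the alpha cluster and Diaph1, Hdac3 and Rell2 after the gamma cluster. Diaph1, which encodes an actin-nucleating formin, lies 1.73 kb beyond the gamma end. Cd14, Pcdh1 and Rnf14 were the 3 with a peak. Among all 33074 autosomal genes 24.4% had a peak near their ends in at least 1 library. Cd14, a co-receptor for bacterial lipopolysaccharide, had 5.97% and 8.26% in del/del cells and 18.99% and 0% in del/fl cells. Pcdh1, a non-clustered protocadherin 344 kb away, had 6.45% and 11.2% in del/del cells and 15.3% and 16.5% in del/fl cells (limma adjusted p = 0.568). Within the locus Slc25a2, a mitochondrial ornithine carrier gene, was bare, and Taf7 had 0% and 5.75% in del/del cells and 3.43% and 0% in del/fl cells. Of 3 annotated genes that span from an alpha start to the gamma end, Gm38666 and Gm38667 were bare and Gm37013, which starts with Pcdha4, had 0% and 12.4% in del/del cells and 0% and 5.53% in del/fl cells.

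Other protocadherins differed widely. Of 12 non-clustered protocadherins, single genes with long cytoplasmic tails, 7 had a peak, and the mean cover at gene ends was 17.8% and 20.4% in del/del cells and 15.96% and 19.99% in del/fl cells, whereas the 58 clustered genes averaged 0.168% and 2.49% in del/del cells and 1.33% and 2.13% in del/fl cells. These means are not alike in make-up. Pcdh19 and Pcdh11x are X-linked, and the windows of alpha and gamma members take in a shared end that held no peak. Pcdh8, a regulator of cadherin adhesion at synapses, had 82.8% and 78.3% in del/del cells and 80.5% and 80.4% in del/fl cells (limma adjusted p = 1). Pcdh19, an X-linked epilepsy gene, had 91.2% and 94.0% in del/del cells and 58.7% and 92.1% in del/fl cells. Pcdh17 was lost, at 0% in both del/del libraries and 1.10% and 1.23% in del/fl cells (limma adjusted p = 0.325).

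Among 19 cadherins 7 had a peak and none was gained or lost. Cdh1, the epithelial cadherin, had 50% and 49.96% in del/del cells and 50% and 48.9% in del/fl cells, and Cdh3, the placental cadherin, had 45.1% and 45.6% in del/del cells and 47.3% and 50% in del/fl cells.

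Of 16 genes that act on protocadherin promoters or work with Smchd1, 6 had a peak and none was gained or lost. The highest were 2 X-linked cohesin genes, Smc1a at 100% in all libraries and Stag2 at 100% in both del/del libraries against 61.3% and 52.3% in del/fl cells (limma adjusted p = 0.261). Ctcf, Rad21, Dnmt3b and Smchd1 itself held no peak, so the deletion of Smchd1 could not be checked from these lists. Of 13 genes for partners of protocadherins inside the cell or at the synapse, 4 had a peak and none was gained or lost. Ret, a receptor tyrosine kinase, had 47.0% and 38.1% in del/del cells and 50% and 46.8% in del/fl cells, and Ptk2b, the kinase Pyk2, had 29.1% and 38.2% in del/del cells and 26.5% and 38.7% in del/fl cells. limma called no gene of these 4 lists.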

How the data were processed

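H3K27me3 libraries (2 del/del and 2 del/fl) were analysed, and their 4 whole-cell extracts served as controls in the authors' peak calls. The submitters' processing notes name bcl2fastq, Bowtie 0.12.9 and the build mm10. The authors called peaks separately in each sample, using MACS2 2.1.0.20140616 in broad mode with random down-sampling of the larger library, 1 tag kept per position and a q-value threshold of 0.05, per the file headers. Per the file headers, the deposited values of a peak are its pileup (a signal, the number of stacked tags), its fold enrichment (the ratio of pileup to local background) and its p-value and q-value, written as −log10. Control tags numbered 20770551 and 31629404 in del/del cells, against 19579060 and 15525700 in del/fl cells.

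Covered base pairs were counted with Python 3.11.15, numpy 2.4.6 and pandas 2.3.3 and drawn with matplotlib 3.10.9. Gene coordinates came from a RefSeq table of GRCm38.p6, which matches mm10, limited to protein-coding genes, lncRNA genes and Pcdhgb8. It lists no exons, so 2.5 kb behind a start stands for the first exon. Strand of other genes came from a RefSeq promoter table of that assembly, which has no entries for chromosome 18. Percent cover of gene-end windows and 100-kb windows with a peak in at least 1 library was fitted with limma 3.58.1 in R 4.3.3 (variance trend, robust fitting, Benjamini-Hochberg adjustment over all features), and single values with exact permutation tests over libraries. The interval code and the limma fit were tested on simulated data. Nothing in the labels says that libraries came from separate embryos, and lines were divided between genotypes, so a p-value here reflects the spread between the 4 samples alone, which may be technical. No 2 lists shared an identical interval.

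The members, gene lists and tests were chosen with earlier results of these data known. Values per library were given for members with a start peak, C-type genes, gained or lost genes and the 2 most covered non-clustered protocadherins, cadherins, regulators and partners, the nearest flanking genes and the locus windows; other non-member genes were added after their values were seen. Alternatives were a replicate block, omission of each library, other peak thresholds, equally long lists, other windows, merging across 3 kb, a minimum of 500 bp, no filter, no trend, scaling to the autosomal cover and autosomes alone. The threshold of −log10 q of 2 and the stretches between clusters were added after the data were seen.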

Additional observations from a re-analysis of the deposited data

How the results depend on the processing

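No member and no window of the locus was called in either direction under any alternative that kept all 4 libraries, and the gamma cluster had no peak under any. Omitting single libraries, members called ranged from 0 to 8 higher and from 0 to 5 lower. The replicate block gave 0 called members, genes and locus windows, as without it; same-numbered libraries deviated together (correlation 0.111 over 8065 autosomal genes and 0.489 over 12509 autosomal windows), but the labels do not tie the numbers to lines. No peak of the locus had a −log10 q of 5, which left 0 lost members. Lists of equal length gave 1 gained and 1 lost, and a minimum of 500 bp gave 1 lost, beside 0 gained and 2 lost. Leaving out a library gave 0 to 8 gained and 2 to 5 lost, where fewer libraries had to agree. The autosomal shares of gained and lost genes given above hold for all peaks of all 4 libraries, so these counts have no background beside them. The mean start cover differed by -3.31 points within 1 kb of the start, beside -1.15 points within 2.5 kb. Over all genes limma called 64 higher and 47 lower with a −log10 q of at least 5, and 5 higher at 2. It called 14 and 7 with windows of 1 kb, 92 higher with 5 kb, 17 and 15 with merged peaks, and 202 and 20 with scaled cover. Leaving out a library gave 0 to 1063 higher and 0 to 1295 lower, beside 0 and 0; the cause was not tested. The gene fit without a filter could not be made, and the reason was not recorded. The lowest pileups in the lists were 5 to 6 stacked tags, so a missing peak does not show that the mark was missing.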
